A study of Mus musculus with 9 samples.

Results

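Reactive gliosis genes were followed through retinal explants cultured with or without 2-deoxy-D-glucose (2-DG), a glucose analogue that blocks glycolysis. The group was a list of 10 genes taken by symbol from the gene tables, namely Gfap, Vim, Lcn2, Serpina3n, Cp, Edn2, Stat3, Socs3, Osmr and Fgf2. All 10 were among the 55487 genes of the count table, and 10 of 10 passed the filter on low counts that left 21049 genes for testing. The rule named the genes and set no threshold on their values.

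Retinas of postnatal day 28 were dissected from wild-type C57BL/6J mice. They were freed of sclera and retinal pigment epithelium (RPE) and cultured for 48 h in Neurobasal-A medium. The labels go on to a rinse and 1 h in Krebs' Ringer medium for both groups, and also say that RNA-seq retinas were taken at once, so whether they passed that step is unclear. The medium held 5 mM glucose in both groups, and 20 mM 2-DG was added for the treated group. RNA-seq of total RNA gave 5 control libraries and 4 2-DG libraries, all of which the labels place in batch 1. Both groups were explants, so the response of a retina to dissection and culture was shared by them, and no uncultured retina enters the comparison. The labels call the libraries biological replicates without saying whether each came from a different mouse, so p-values measure the spread between these libraries.

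Reactive gliosis is the response of Müller glia, the radial glia of the retina, and of astrocytes to injury. The cells fill with the intermediate filament proteins GFAP and vimentin and secrete acute-phase proteins. Cytokines of the interleukin-6 family signal through the shared receptor gp130 to JAK kinases and STAT3, and STAT3 switches on acute-phase genes together with its own inhibitor Socs3. Stressed photoreceptors release endothelin 2, and Müller glia answer with the growth factor FGF2.

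Promoter sequences are shown for Gfap and Socs3 because they were the members whose windows held the palindrome bound by STAT factors, TTCNNNGAA. RefSeq windows of GRCm38.p6 reached from 250 bases before to 50 bases after each annotated start and were found for all 10 members, with 11 windows in all because Cp has a pair of starts. Capitals mark the palindrome, which reads the same on both strands. The Gfap window lies at chr11:102897151-102897450 and the Socs3 window at chr11:117969317-117969616, both on the minus strand and printed 5′ to 3′.
Gfap: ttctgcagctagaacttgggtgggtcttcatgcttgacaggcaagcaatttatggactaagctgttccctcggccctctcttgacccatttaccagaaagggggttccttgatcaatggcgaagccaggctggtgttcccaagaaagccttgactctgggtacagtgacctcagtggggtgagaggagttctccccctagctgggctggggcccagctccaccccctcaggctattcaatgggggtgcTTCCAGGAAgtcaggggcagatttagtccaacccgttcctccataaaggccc
Socs3: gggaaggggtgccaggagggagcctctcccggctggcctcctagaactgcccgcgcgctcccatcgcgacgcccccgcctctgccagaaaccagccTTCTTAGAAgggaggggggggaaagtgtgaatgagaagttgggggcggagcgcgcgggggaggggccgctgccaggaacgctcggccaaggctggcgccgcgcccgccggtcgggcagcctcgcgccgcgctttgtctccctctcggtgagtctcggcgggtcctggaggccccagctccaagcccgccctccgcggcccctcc
The palindrome began 2 bases before the annotated start in Gfap and 154 bases before it in Socs3. It occurred in 2 of 11 member windows and in 8.3% of the 32851 windows of all genes. A stricter form, TTCCNGGAA, occurred in 1.15% of all windows and among the members in Gfap. The AP-1 motif TGANTCA occurred in 7.81% of all windows and among the members in Cp and Osmr. These matches describe letters in a window and are not evidence of binding.

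Libraries held 11318087 to 51802230 counts, and a member drew between 210 and 29074 counts in any library. Levels are given as CPM, counts scaled to a common library size after TMM normalization. Several libraries stood apart. Control replicate 5 and 2-DG replicate 4 had the lowest summed CPM of 5 bipolar markers, 143 and 271, against 405 to 2750 in the other 7 libraries. Their summed CPM of 5 endothelial markers was the highest, 1970 and 2630, against 264 to 1030 elsewhere. In control replicate 2 the summed CPM of 9 rod photoreceptor markers was 41900, against 5120 to 16100 in the other libraries. Control replicate 2 was also the lowest of the 9 libraries in 8 of 10 members, the exceptions being Edn2 and Fgf2, whereas it was lowest for 22.6% of all genes tested. Each member, and each listed gene with an estimate, is therefore given with and without control replicate 2, while transcript values are those of all 9 libraries. 2-DG replicate 3 held the highest summed CPM of 6 cone markers, 678, with 547 in control replicate 2 and 48.3 to 122 in the other 7 libraries. Of 10 Müller glia markers Aqp4, Kcnj10 and Dkk3 were highest there and Sox9 was lowest. Aqp4 was at 67.3 CPM against 4.38 to 27.6 CPM elsewhere, and the summed level of the 10 in that library, 4040 CPM, was below that of control replicates 4 and 5. 2-DG replicate 2 was the highest library for 5 members (Lcn2, Cp, Edn2, Stat3 and Fgf2), and for 7.73% of all genes. Markers of rods and Müller glia were detected in every library, as the tissue label implies. In bulk tissue fewer cells of a type and less RNA per cell cannot be told apart.

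No member reached an adjusted p of 0.05 in edgeR on the 9 libraries. By edgeR's quasi-likelihood test with Benjamini-Hochberg adjustment on all 9 libraries, 0 of 10 members and 0% of the 21049 genes were called. At an unadjusted p under 0.05, 1 of 10 members (Vim, higher with 2-DG) was found, against 7.25% of all genes in either direction and 2.42% in the higher direction. By sign 7 members were higher and 3 lower, and the median log2 fold change over the 10 was 0.15 against -0.01 over all genes. Groups overlapped for every member, while they did not overlap for 2.93% of all genes. Without control replicate 2, 4 members were higher and 6 lower, the median was -0.02 against 0.03, and 3 members (Serpina3n, Socs3 and Osmr) were lower at an unadjusted p under 0.05, against 6.07% of all genes in that direction and 8.99% in either. Again 0 of 10 members were called after adjustment, against 0.0775% of genes, which is 16 of 20632. DESeq2 called 0 of 10 members and 1.36% of genes, and limma-voom with sample quality weights 0 of 10 members and 5.81% of genes. One member, Socs3, was called when 2 surrogate variables were added to the edgeR model, a fit that called 3.44% of all genes.

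**Figure D1:**
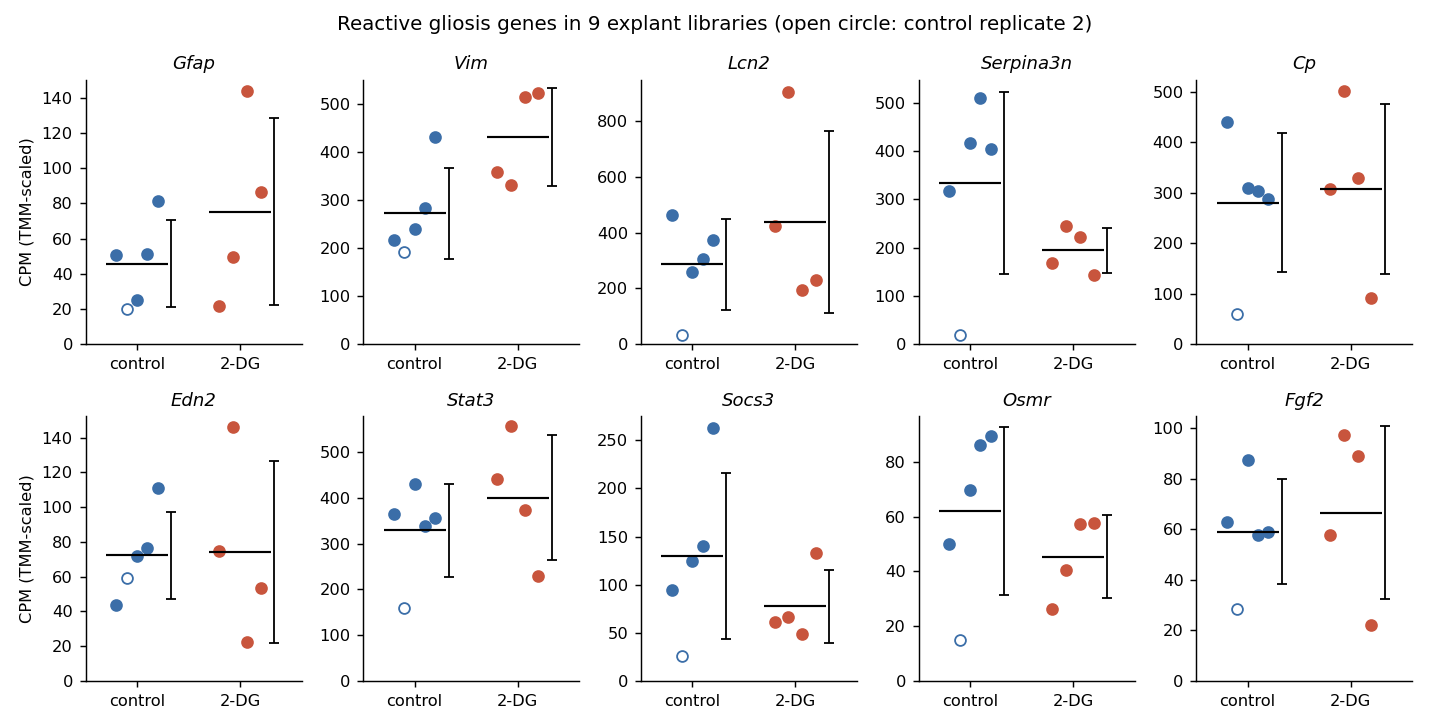
TMM-scaled CPM (y axis, linear and from 0, a separate scale for each gene) of the 10 genes in control and 2-DG libraries. Points are libraries, the open circle is control replicate 2, horizontal lines are group means and bars beside them are ± 1 SD. The groups overlap in every panel, and control replicate 2 is the lowest point in 8 of 10.

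Filament genes had the largest positive estimates of the 10 in edgeR on 9 libraries, but not in every fit. In limma-voom Lcn2 (0.828) was above Vim (0.691) and Gfap (0.565). The estimate of Gfap turned to -0.13 in limma-voom with sample quality weights. Gfap (ENSMUSG00000020932, chromosome 11, 102887336 to 102900912 of GRCm38, minus strand) encodes glial fibrillary acidic protein, the classical marker of reactive glia. Its level was 50.8, 19.8, 25.0, 51.0 and 81.6 CPM in control replicates 1 to 5 and 21.7, 49.4, 144 and 86.3 CPM in 2-DG replicates 1 to 4. The 2 highest libraries were 2-DG replicates 3 and 4, while 2-DG replicate 1 lay below 4 of the 5 controls. Means were 45.6 ± 24.7 CPM (SD, n = 5) and 75.4 ± 52.9 CPM (SD, n = 4). The log2 fold change, 2-DG over control, was 0.72 (SE 0.538, 95% interval -0.46 to 1.91), with an adjusted p of 0.799 in edgeR, and 0.53 (SE 0.545) without control replicate 2. Leaving out 2-DG replicate 3 instead took the estimate to 0.20. That library also held the highest summed CPM of 6 RPE markers, 97.8, with 20.4 in 2-DG replicate 4 and 1.57 to 9.32 in the other 7 libraries. Ttr, the RPE marker with the smallest p, was at 49.0 CPM in 2-DG replicate 3 and 12.3 CPM in 2-DG replicate 4, and Rpe65, Tyr, Lrat and Rgr were also highest in 2-DG replicate 3. Best1, the other marker, was at 0.701 CPM there and highest in control replicate 1, at 1.29 CPM. Rpe65 was at 6.67 CPM in 2-DG replicate 3 and 0.326 CPM in 2-DG replicate 4, and at 0 to 0.0762 CPM in the other 7. The part of these markers in the Gfap values was not tested.

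Vim (ENSMUSG00000026728, chromosome 2, 13573927 to 13582826, plus strand) encodes vimentin, the filament protein that Müller glia hold at rest and that endothelial cells and pericytes hold too. It measured 217, 193, 240, 283 and 431 CPM in the controls and 358, 332, 515 and 524 CPM with 2-DG. All 4 2-DG libraries exceeded the control mean and 4 of the 5 controls, and control replicate 5 made the groups overlap. Means were 273 ± 94.7 CPM (SD, n = 5) and 432 ± 101 CPM (SD, n = 4). The log2 fold change was 0.67 (SE 0.288, 95% interval 0.03 to 1.30), with an unadjusted p of 0.0424 and an adjusted p of 0.685 in edgeR. With control replicate 2 set aside the estimate was 0.56 (SE 0.282) and the unadjusted p 0.0773 in edgeR. With each library left out in turn the unadjusted edgeR p ran from 0.00661 (without control replicate 5) to 0.106 (without 2-DG replicate 3), and it was above 0.05 also without control replicates 1 to 4 or 2-DG replicate 4. Vim was the 1304th gene of 21049 by p-value. Endothelial markers were highest in libraries with much Vim. The summed CPM of 5 such markers was 2630 in 2-DG replicate 4, 1970 in control replicate 5 and 264 to 1030 in the other libraries. Across the 9 libraries Vim followed that sum with a Pearson r of 0.77 and a Spearman rho of 0.72, as a description of points that share library depth. Its r with the sum of 4 astrocyte markers was 0.79, and without control replicate 2 the values were 0.78 for the endothelial and 0.76 for the astrocyte sum. In 2-DG replicate 4 Gja1 alone held 209 of the 245 CPM of the astrocyte sum. Of the 4 markers 2 were higher and 2 lower with 2-DG. Aldh1l1 was at -0.72 on the log2 scale (SE 0.303, unadjusted p = 0.0375 in edgeR), and at -0.85 without control replicate 2. The part of vessels and astrocytes in the Vim values was not tested.

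Partners of these filaments were mixed. Of 5 genes tested, namely Nes, Synm, Des, Plec and Cryab, 2 were higher and 3 lower, and 1 was lower at an unadjusted p under 0.05, against 4.83% of all genes lower. That gene was Cryab, a small heat shock protein that binds intermediate filaments, at 64.2 to 340 CPM in controls and 50.6 to 105 CPM with 2-DG (log2 fold change -1.59, SE 0.449, adjusted p = 0.524 in edgeR, and -1.83 without control replicate 2). Nes, the filament protein nestin, was at -0.61 (SE 0.391) on the same log2 scale and at -0.82 without that library.

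Estimates of the acute-phase genes had both signs, with intervals that overlapped. Serpina3n (ENSMUSG00000021091, chromosome 12, 104406729 to 104414329, plus strand) encodes a secreted serine protease inhibitor that is among the strongest markers of reactive astrocytes. It was at 317, 19.5, 418, 511 and 405 CPM in the controls and at 169, 244, 222 and 144 CPM with 2-DG. Control replicate 2 was the lowest of all 9 libraries, and the other 4 controls were all above all 4 2-DG libraries. With all libraries the means were 334 ± 189 CPM (SD, n = 5) and 195 ± 46.1 CPM (SD, n = 4), and the log2 fold change was -0.78 (SE 0.649, 95% interval -2.21 to 0.66, adjusted p = 0.82 in edgeR). Without control replicate 2 the control mean was 413 ± 79.2 CPM (SD, n = 4) and the log2 fold change -1.09 (SE 0.241, 95% interval -1.63 to -0.54). The unadjusted p of that fit was 0.00144 and the adjusted p 0.127 in edgeR. Non-overlapping groups in the lower direction were found for 4.47% of all genes once control replicate 2 was set aside.

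Serpina3n sits in a cluster of closely related genes on chromosome 12, whose reads can be split between copies during quantification. The table held 10 other Serpina3 genes, of which 5 were tested, 4 lower and 1 higher, with a median log2 fold change of -1.47. At an unadjusted p under 0.05, where 4.83% of all genes were lower, Serpina3i (log2 fold change -2.82, SE 0.887) and Serpina3f (-1.98, SE 0.698) were lower. Their adjusted p was 0.546 and 0.603 in edgeR. Both had levels far under that of Serpina3n, at most 17.6 CPM for Serpina3i and 2.67 CPM for Serpina3f. Control replicate 2 was also their lowest library, and without it the log2 fold changes were -3.13 and -2.26.

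Lcn2 (ENSMUSG00000026822, chromosome 2, 32384633 to 32388252, minus strand) encodes lipocalin 2, a secreted carrier of iron-binding siderophores. Its level was 464, 31.5, 257, 306 and 375 CPM in the controls and 425, 904, 196 and 229 CPM with 2-DG. One library of each group set the spread, with control replicate 2 lowest and 2-DG replicate 2 highest, and the remaining libraries were interleaved. Means were 287 ± 163 CPM (SD, n = 5) and 438 ± 327 CPM (SD, n = 4), and the log2 fold change was 0.61 (SE 0.656, 95% interval -0.84 to 2.06, adjusted p = 0.851 in edgeR). It was 0.32 (SE 0.472) without control replicate 2 and -0.02 without 2-DG replicate 2.

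Cp (ENSMUSG00000003617, chromosome 3, 19957054 to 20009145, plus strand) encodes ceruloplasmin, the copper enzyme that oxidizes iron as it leaves the cell. It was at 440, 58.9, 310, 303 and 288 CPM in the controls and 307, 502, 329 and 92.1 CPM with 2-DG. Control replicate 2 and 2-DG replicate 4 were both low, and the other 7 libraries lay between 288 and 502 CPM. Means of 280 ± 138 CPM (SD, n = 5) and 308 ± 168 CPM (SD, n = 4) gave a log2 estimate of 0.14 (SE 0.551, 95% interval -1.08 to 1.35, adjusted p = 0.962 in edgeR). The estimate was -0.13 without control replicate 2.

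Of 11 other iron handling genes 10 were tested, with 8 higher, 2 lower and a median log2 fold change of 0.51. One was higher at an unadjusted p under 0.05, against 2.42% of all genes higher. That gene was Slc40a1, which encodes ferroportin, the iron exporter that works with ceruloplasmin. It was at 4.81 to 15.1 CPM in controls and at 16.0, 13.2, 27.5 and 121 CPM with 2-DG (log2 fold change 2.15, SE 0.645, adjusted p = 0.526 in edgeR, and 2.28 without control replicate 2). The highest value was that of 2-DG replicate 4, where Cp was lowest among the 2-DG libraries. Leaving out that library took the list to 5 higher and 5 lower with a median of 0.01, and Slc40a1 to a log2 fold change of 0.92 (unadjusted p = 0.0471 in edgeR).

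**Figure D2:**
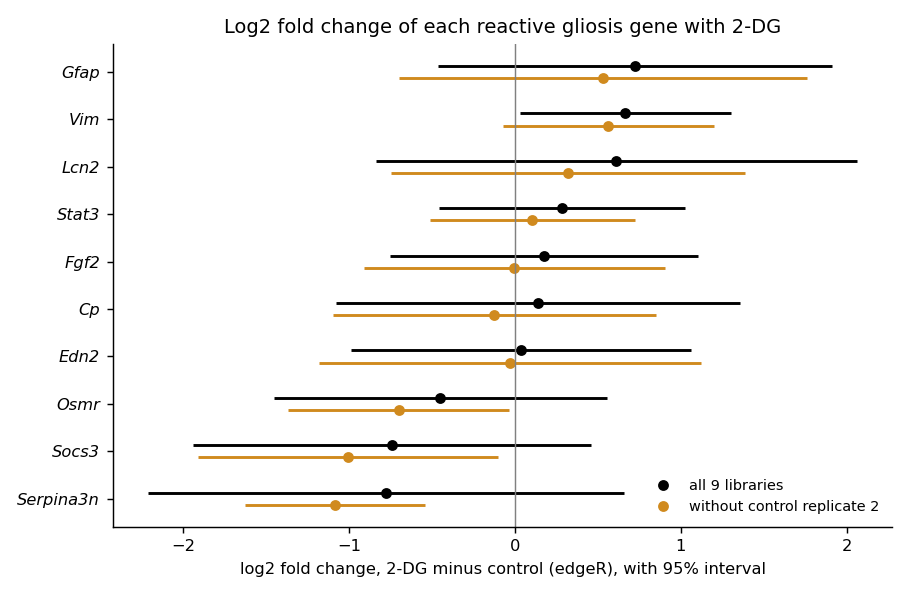
Log2 fold change of each gene, 2-DG minus control (x axis), from edgeR with 95% intervals. Black is all 9 libraries and ochre the 8 libraries without control replicate 2. With all libraries the interval of Vim alone leaves out 0, and without control replicate 2 those of Serpina3n, Socs3 and Osmr do.

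Receptor, factor and inhibitor of the gp130 pathway are given in turn. Osmr (ENSMUSG00000022146, chromosome 15, 6813577 to 6874969, minus strand) encodes the oncostatin M receptor, which pairs with gp130. It measured 49.8, 15, 69.8, 86 and 89.5 CPM in the controls and 26.1, 40.5, 57.1 and 57.8 CPM with 2-DG. Control replicate 1 was the only control inside the range of the 2-DG libraries, and control replicate 2 lay below it. The log2 fold change was -0.45 (SE 0.454, 95% interval -1.45 to 0.55, adjusted p = 0.841 in edgeR), from means of 62.0 ± 30.6 CPM (SD, n = 5) and 45.4 ± 15.1 CPM (SD, n = 4). Setting control replicate 2 aside gave -0.70 (SE 0.295, 95% interval -1.37 to -0.04), with an unadjusted p of 0.0408 and an adjusted p of 0.515 in edgeR.

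Stat3 (ENSMUSG00000004040, chromosome 11, 100885098 to 100939540, minus strand), the transcription factor of the pathway, was at 365, 159, 430, 338 and 355 CPM in the controls and 441, 558, 373 and 230 CPM with 2-DG. The lowest library was a control and the next lowest a 2-DG library, and the groups overlapped through most of their range. Means of 329 ± 101 CPM (SD, n = 5) and 400 ± 137 CPM (SD, n = 4) gave a log2 estimate of 0.28 (SE 0.335, 95% interval -0.46 to 1.02, adjusted p = 0.862 in edgeR). The estimate without control replicate 2 was 0.10 (SE 0.273). STAT3 acts once it is phosphorylated, which RNA levels do not show.

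Socs3 (ENSMUSG00000053113, chromosome 11, 117966079 to 117970047, minus strand) encodes the inhibitor that STAT3 induces and that shuts off gp130 signalling. It measured 94.3, 26.1, 125, 140 and 263 CPM in the controls and 61.4, 66.2, 48.9 and 133 CPM with 2-DG. 2-DG replicates 1 to 3 lay under every control but replicate 2, while 2-DG replicate 4 lay among the controls. The log2 fold change was -0.74 (SE 0.542, 95% interval -1.94 to 0.46, adjusted p = 0.793 in edgeR), from means of 129 ± 86.3 CPM (SD, n = 5) and 77.3 ± 37.6 CPM (SD, n = 4). Without control replicate 2 the control mean was 155 ± 73.9 CPM (SD, n = 4) and the log2 fold change -1.01 (SE 0.401, 95% interval -1.91 to -0.10), with an unadjusted p of 0.0329 and an adjusted p of 0.478 in edgeR. Socs3 was the member that passed the threshold in an alternative, with an adjusted p of 0.0124 and a log2 fold change of -0.78 when 2 surrogate variables were added to the edgeR model, a fit that called 3.44% of all genes.

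Around these 3 genes most of the pathway had estimates below 0. Of 8 gp130 ligands 1 was higher and 7 were lower, with a median log2 fold change of -0.51. Lif, a ligand that Müller glia make after photoreceptor injury, was at 56.9 to 631 CPM in controls and 68.6 to 226 CPM with 2-DG (log2 fold change -1.11, SE 0.651, and -1.38 without control replicate 2). None of 5 other receptor genes and none of 6 JAK kinase and STAT genes passed an unadjusted p under 0.05, with medians of -0.12 and -0.03.

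Among 9 other inhibitors of the pathway 3 were higher and 6 lower (median -0.28). Of these 2 were lower at an unadjusted p under 0.05, against 4.83% of all genes. Cish, a SOCS family gene induced by STAT5, was at 21.7, 16.5, 24.1, 32.6 and 37.3 CPM in the controls and 10.3, 11.9, 5.76 and 15.5 CPM with 2-DG. Its groups did not overlap, control replicate 2 included, and the estimate was -1.29 on the log2 scale (SE 0.344, adjusted p = 0.524 in edgeR). The estimate for Socs1 was -1.22 on the log2 scale (SE 0.552, adjusted p = 0.689 in edgeR). With control replicate 2 set aside they were -1.42 and -1.48. Of 11 genes known as STAT3 targets 3 were higher and 8 lower (median -0.33), and none passed an unadjusted p under 0.05. Lrg1 (log2 fold change 1.41, SE 0.764) and Junb (-1.32, SE 0.724) were at the ends of that list, and stood at 1.11 and -1.60 without control replicate 2.

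Of the secreted signals, Edn2 (ENSMUSG00000028635, chromosome 4, 120161206 to 120167360, plus strand) encodes endothelin 2. Its level was 43.5, 59.2, 71.7, 76.3 and 111 CPM in the controls and 74.5, 146, 22.2 and 53.7 CPM with 2-DG. Both the highest and the lowest of the 9 libraries were 2-DG libraries, replicates 2 and 3. Means were 72.3 ± 25.0 CPM (SD, n = 5) and 74.1 ± 52.5 CPM (SD, n = 4), and the log2 fold change was 0.04 (SE 0.463, 95% interval -0.99 to 1.06, adjusted p = 0.99 in edgeR). The interval reached about 1 log2 unit either way. The estimate without control replicate 2 was -0.03. Of 6 other endothelin pathway genes 5 were tested, 3 higher and 2 lower, and none passed an unadjusted p under 0.05. Ednrb, the endothelin receptor of Müller glia, was at 117 to 492 CPM in controls and 175 to 765 CPM with 2-DG (log2 fold change 0.50, SE 0.563, and 0.32 without control replicate 2).

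Fgf2 (ENSMUSG00000037225, chromosome 3, 37348346 to 37410108, plus strand) encodes basic fibroblast growth factor. It was at 62.8, 28.6, 87.4, 57.6 and 58.9 CPM in the controls and 57.6, 97.4, 88.8 and 22.2 CPM with 2-DG. Here 2-DG replicate 4, not control replicate 2, was the lowest library. Means of 59.1 ± 20.9 CPM (SD, n = 5) and 66.5 ± 34.2 CPM (SD, n = 4) gave a log2 estimate of 0.17 (SE 0.42, 95% interval -0.76 to 1.10, adjusted p = 0.937 in edgeR) and -0.01 without control replicate 2.

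Other genes of the FGF pathway were lower in 14 of 15 cases, with a median log2 fold change of -0.37 against -0.01 over all genes. Of these 2 were lower at an unadjusted p under 0.05, against 4.83% of all genes. Spry2, an inhibitor that FGF signalling induces, was at 44.5 to 259 CPM in controls and 33.2 to 93.2 CPM with 2-DG (log2 fold change -1.11, SE 0.462, adjusted p = 0.664 in edgeR, and -1.34 without control replicate 2). Fgf9 was at 21.4 to 51.5 CPM in controls and 16.4 to 20.5 CPM with 2-DG, with groups that did not overlap (log2 fold change -0.67, SE 0.296, adjusted p = 0.689 in edgeR). Its highest control was replicate 2, without which the estimate was -0.36 and the unadjusted edgeR p 0.0763.

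Published panels of astrocyte reactivity gave the members a wider frame. The pan-reactive panel of 13 genes, which includes 6 of the members, had 4 higher and 9 lower and a median log2 fold change of -0.71. Vim was its 1 higher gene at an unadjusted p under 0.05, and S1pr3 (-1.45, SE 0.645) and Cxcl10 (-2.55, SE 1.14) were the 2 lower ones. Over all genes 2.42% were higher and 4.83% lower at that threshold. The A1 panel, genes raised by inflammatory stimuli, had 7 higher and 4 lower of 11, with Fkbp5 (0.74, SE 0.293) higher at that threshold. Its Gbp2 (-1.51, SE 0.688) and Iigp1 (-1.50, SE 0.69) were further from 0 and lower, with unadjusted edgeR p of 0.052 and 0.0538. The A2 panel, genes raised by ischaemia, had 2 higher and 10 lower of 12, with a median of -0.89. At an unadjusted p under 0.05, where 4.83% of all genes were lower, 5 of the panel were lower. They were Sphk1 (-1.89, SE 0.429), Ptx3 (-3.31, SE 0.89), B3gnt5 (-1.34, SE 0.49), S100a10 and Tgm1. Ptx3, a secreted pentraxin, was at 52.8, 3.12, 67.7, 171 and 78.5 CPM in the controls and 7.21, 12.8, 2.25 and 8 CPM with 2-DG. All 4 2-DG libraries lay under 4 of the 5 controls, and control replicate 2 lay among them. With that library set aside Ptx3 was at -3.62, Sphk1 at -2.10, B3gnt5 at -1.59, S1pr3 at -1.76 and Cxcl10 at -2.86 on the log2 scale. Fkbp5 was at 0.63, with an unadjusted edgeR p of 0.0557. Gbp2 was at -1.80 and Iigp1 at -1.79, with unadjusted edgeR p of 0.0054 and 0.00433. In edgeR on the 9 libraries no gene of these panels was called after adjustment over all genes.

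The same lists were counted in the 8 libraries without control replicate 2, where 6.07% of all genes were lower at an unadjusted p under 0.05. Lower genes at that threshold then numbered 6 of 12 in the A2 panel (median -1.14), 6 of 13 in the pan-reactive panel (median -0.70) and 3 of 11 in the A1 panel. The pathway lists gave 3 of 9 JAK-STAT inhibitors, 2 of 11 STAT3 targets, 3 of 15 FGF pathway genes, 2 of 5 filament partners and 3 of 5 other Serpina3 genes. All 8 gp130 ligands were then below 0, with a median of -0.59. Of the iron handling genes 1 was higher and 1 lower. One inhibitor, Pias3, had an estimate of 0.40 (SE 0.173, unadjusted p = 0.0458 in edgeR) without control replicate 2, where 2.92% of all genes were higher at that threshold, and of -0.10 (SE 0.378) on 9 libraries. Control replicate 2 held 208 CPM of it and the other controls 58.2 to 82.2 CPM. No gene of these lists was called after adjustment in that edgeR fit.

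**Figure D3:**
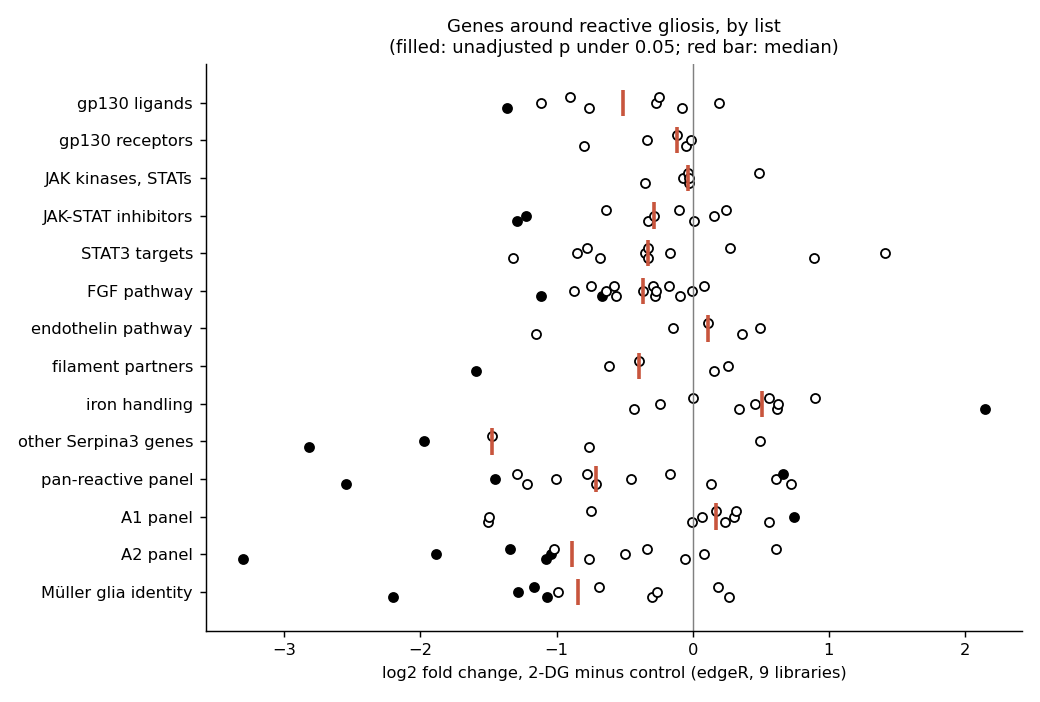
Log2 fold change, 2-DG minus control (x axis, edgeR on 9 libraries), of each tested gene of the lists around reactive gliosis (rows). Filled points have an unadjusted p under 0.05, and red bars are list medians, which lie at -0.89 for the A2 panel, -0.84 for Müller glia identity and 0.51 for iron handling.

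Most markers of Müller glia identity had estimates below 0. Of 10 markers 8 were lower and 2 higher, with a median log2 fold change of -0.84. At an unadjusted p under 0.05, 4 were lower, against 4.83% of all genes. Sox9, a transcription factor of Müller glia, was at 112, 20.9, 115, 196 and 194 CPM in the controls and 25.2, 37.2, 14 and 34.3 CPM with 2-DG (log2 fold change -2.20, SE 0.568, adjusted p = 0.524 in edgeR). Every control but replicate 2 was above every 2-DG library. Sox2 (-1.17, SE 0.351) did not overlap between groups, and Slc1a3, the glutamate transporter, was at -1.07 (SE 0.472). Glul, glutamine synthetase, was the other marker past that threshold. Without control replicate 2 the median of the 10 was -0.64, and 3 were lower at that threshold, Sox9 (-2.48), Sox2 (-1.27) and Slc1a3 (-1.23). The summed CPM of the 10 markers was 2450 to 7780 in controls and 1370 to 4040 with 2-DG.

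How far these lists lay from 0 depended on single libraries. With each library left out of the edgeR fit in turn, the median of the Müller glia markers ran from -1.65 without 2-DG replicate 3 (all 10 lower) to -0.45 without control replicate 5, and was -0.51 and -0.55 without 2-DG replicates 1 and 2. The gp130 ligands ran from -0.96 without 2-DG replicate 4 to -0.27 without control replicate 5 (3 higher and 5 lower). Panel medians were highest without control replicate 5, at -0.29 for the pan-reactive, -0.58 for the A2 and 0.52 for the A1 panel. The lowest were -0.80, without control replicate 1, for the pan-reactive, -1.14, without control replicate 2, for the A2 and -0.38, without 2-DG replicate 4, for the A1 panel. The inhibitors ran from -0.37 without 2-DG replicate 4 to -0.10 without 2-DG replicate 3, and the STAT3 targets from -0.54 without 2-DG replicate 4 to -0.14 without 2-DG replicate 1. The FGF pathway ran from -0.66 without 2-DG replicate 3 to -0.34 without 2-DG replicate 1, the filament partners from -0.55 without control replicate 5 to -0.21 without control replicate 3, and the other Serpina3 genes from -2.28 without 2-DG replicate 4 to -1.06 without control replicate 5. The endothelin pathway changed sign, from -0.23 without 2-DG replicate 4 to 0.30 without control replicate 5. Genes lower at an unadjusted p under 0.05 in edgeR numbered 2 to 7 among the Müller glia markers, 3 to 6 in the A2 panel and 0 to 6 in the pan-reactive panel.

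Other fits called genes of these lists after adjustment where edgeR on 9 libraries called none. Of all genes DESeq2 called 1.36%, limma-voom with sample quality weights 5.81% and edgeR with 2 surrogate variables 3.44%. Within the lists DESeq2 called 7, namely Sox9, Sox2, Cish, Cryab, Serpina3i, Ptx3 and Sphk1, all lower. Limma-voom with sample quality weights called 4 of the Müller glia markers (Sox9, Sox2, Glul and Slc1a3), 4 of the A2, 2 of the A1 and 2 of the pan-reactive panel. It also called Cish, Socs1, Cryab, Nes, Serpina3i, Serpina3f, Spry1, Spry4, Spred1 and the astrocyte marker Aldh1l1, again all lower. With 2 surrogate variables edgeR called Sox9, Sox2, Cish, Socs1, Pim1, Spry2, Cryab, Serpina3i, Serpina3f and 4 A2, 2 A1 and 4 pan-reactive genes, all lower. In that fit Slc40a1 and the pericyte marker Cspg4 were called in the higher direction.

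Relative to the sum of the 10 Müller glia markers all 10 members had higher means with 2-DG, as did 90.2% of all genes tested. The difference in mean log2 ratio was 1.58 for Vim, whose values ran from -4.34 to -3.35 in controls and from -2.97 to -1.94 with 2-DG. Vim was the member whose groups did not overlap on this scale, which held in the higher direction for 2.26% of all genes. Gfap gave a difference of 1.48, with controls at -5.67, -7.62, -6.62, -6.63 and -6.57 and 2-DG libraries at -5.98, -5.09, -4.81 and -4.70. A single pair made its groups overlap, control replicate 1 and 2-DG replicate 1. Without control replicate 2 the difference was 1.48 for Vim and 1.23 for Gfap, and 2 members turned negative, Serpina3n at -0.20 and Socs3 at -0.11. The ratio had no test of its own.

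**Figure D4:**
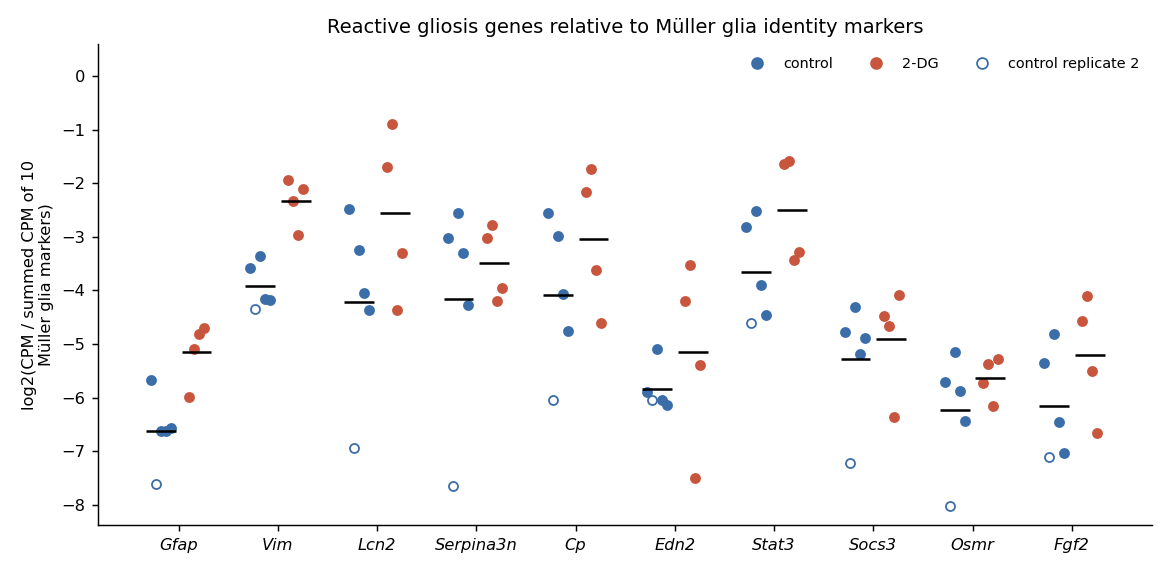
Log2 of each gene's CPM over the summed CPM of 10 Müller glia markers (y axis) in control and 2-DG libraries. Points are libraries, the open circle is control replicate 2 and lines are group means. Vim is the gene whose groups do not overlap, with a difference of 1.58.

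Levels were compared between genes per kilobase, from transcript CPM divided by annotated transcript length and summed over each gene. In control explants the order was Lcn2 (315 ± 177 CPM per kb, SD, n = 5), Vim (163 ± 56.8), Serpina3n (161 ± 91.1), Stat3 (106 ± 31.6), Cp (92.2 ± 44.7), Socs3 (53.4 ± 35.6), Edn2 (49.5 ± 16.9), Gfap (17.2 ± 8.91), Osmr (13.8 ± 6.72) and Fgf2 (11.8 ± 3.75). Vim and Serpina3n differed by less than 1 SD, Vim being above Serpina3n in 2 of 5 control and 4 of 4 2-DG libraries. Edn2 stood above Gfap in 8 of 9 libraries and Stat3 above Cp in 8 of 9, while the other neighbouring pairs kept the order of the means in 3 to 7 of 9. Lcn2 ranged 29.0-fold between its highest and lowest library, Serpina3n 25.9-fold and Socs3 10.1-fold, while Stat3 ranged 3.29-fold and Vim 2.63-fold. The lowest library of all 5 was control replicate 2, and without it the ranges were 4.9-fold, 3.58-fold, 5.32-fold, 2.31-fold and 2.37-fold.

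Transcripts gave no further difference. The 10 genes had 64 annotated transcripts with values. Of these 50 were tested, 0 had an unadjusted p under 0.05, against 3.45% of all transcripts tested, and 0 were called after adjustment in edgeR, with all libraries or with any 1 left out. The smallest unadjusted p, 0.0545, was that of a Vim transcript with a retained intron (ENSMUST00000148248, log2 fold change 0.71, SE 0.327). A single protein-coding transcript carried most of the counts in 9 of 10 genes. For Gfap it was ENSMUST00000067444, of 9 exons and 2648 bases, with 82.9% ± 8.47 of the gene's transcript counts in controls (SD, n = 5) and 91.7% ± 2.68 with 2-DG (SD, n = 4). For Cp the leading transcript, ENSMUST00000091309, held 31.8% in controls and 38.7% with 2-DG.

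Libraries in which one member was high were not the libraries in which all were. Across the 9 libraries 12 of 45 pairs of members had a Pearson r of log2 CPM above 0.7 and 3 pairs were below 0. Without control replicate 2, which was low for most members, 5 pairs stayed above 0.7 and 23 pairs were below 0. Points of these correlations share library, depth and, for control replicate 2, a low level of most members, and they describe the libraries only. Cp, Stat3 and Fgf2 were alike with and without that library, with r of 0.94 and 0.86 for Cp and Stat3, 0.89 and 0.90 for Cp and Fgf2, and 0.87 and 0.87 for Stat3 and Fgf2. Socs3 and Osmr (0.86 and 0.74) and Serpina3n and Osmr (0.88 and 0.70) formed another likeness, and Gfap and Vim (0.75 and 0.66) one more. Stat3 and Socs3, factor and inhibitor, had an r of 0.30 with all libraries and -0.44 without control replicate 2.

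**Figure D5:**
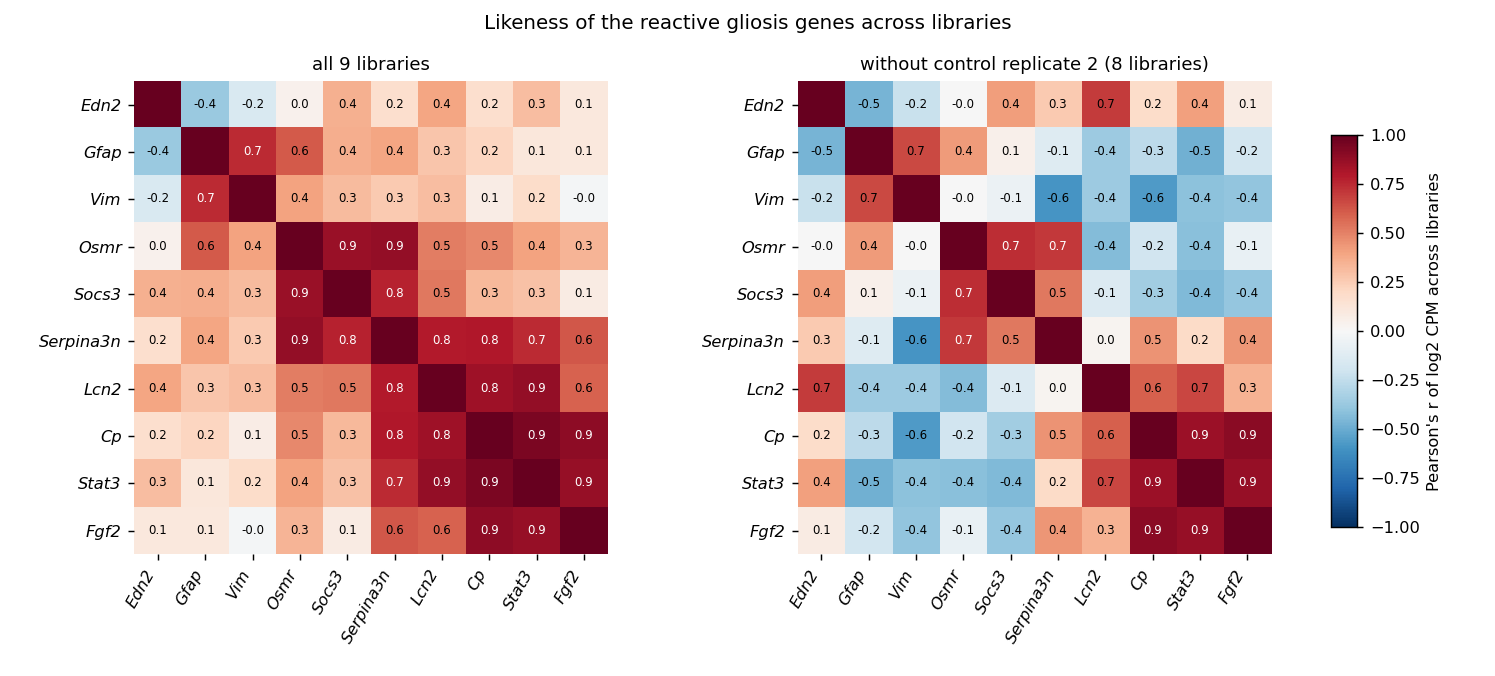
Pearson's r of log2 CPM between the 10 genes (rows and columns, in the same order) across all 9 libraries at left and the 8 libraries without control replicate 2 at right. Red is positive and blue negative. Pairs below 0 number 3 at left and 23 at right, while Cp, Stat3 and Fgf2 stay near 0.9.

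Genes most like each member over the 9 libraries, of all 21049 tested, differed by member. Vim was most like Mmrn2 (r = 0.98, rho = 1), Afap1l1 (0.98) and Nos3 (0.98), of which Mmrn2 and Nos3 are known from endothelial cells. Gfap was most like Boc (0.96), Glycam1 (0.94) and Fmod (0.93). Socs3 was most like D730045A05Rik (0.98), F3 (0.98) and Sp5 (0.97), and Serpina3n like 9430062P05Rik (0.99), Gm16044 (0.98) and Met (0.97). For Osmr the leading genes were Gm43822 (0.99), Arl6ip6 (0.97) and Gcnt2 (0.97). For Stat3 they were Adat2 (0.98), Gm44792 (0.97) and Gm37314 (0.97), and Gm37314 (0.97) also followed Gm45233 (0.99) and Lrrfip1 (0.97) for Cp. Lcn2 was most like Pycr1 (0.97), Zbtb7c (0.96) and Zfp408 (0.95), Edn2 like Hps1 (0.94), Lin7b (0.92) and Sdr42e1 (0.92), and Fgf2 like Ptgfr (0.96), Runx2 (0.96) and Gm43375 (0.96).

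Marker sums of cell types were set beside the members in the same way. Of 100 relations between a member and a marker sum, 11 had an absolute r above 0.75 on 9 libraries and 12 without control replicate 2, and pairs of values below give r in that order. Gfap ran with the RPE sum (0.85 and 0.92), with the sum of 4 astrocyte markers (0.76 and 0.73) and, once control replicate 2 was set aside, with the cone sum (0.26 and 0.79). In the astrocyte sum Pax2 was at 0 in at least one library, and Gja1 held 209 of 245 CPM in 2-DG replicate 4. That sum was 41.6 to 120 CPM in controls and 40.5 to 245 CPM with 2-DG. Its r with Cp (-0.25 and -0.82) and Stat3 (-0.22 and -0.80) was further from 0 without control replicate 2, as was that of the endothelial sum with Cp (-0.32 and -0.78).

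The rod sum ran against Cp (-0.86 and -0.66), Serpina3n (-0.79 and -0.20) and Stat3 (-0.78 and -0.40), and the ganglion cell sum against Lcn2 (-0.83 and -0.54), Stat3 (-0.81 and -0.56) and Serpina3n (-0.77 and -0.32). These relations were all weaker without control replicate 2. The ganglion cell sum with Edn2 (-0.61 and -0.86), the bipolar sum with Socs3 (-0.39 and -0.81) and the Müller glia sum with Osmr (0.42 and 0.86) were further from 0 without it. Microglial markers ran against Edn2 (-0.75 and -0.85) and, without that control, against Lcn2 (0.01 and -0.76). The sum of 8 microglial markers was 30.3 to 55.9 CPM in controls and 29.3 to 77.3 CPM with 2-DG, with P2ry12 at 0 in at least one library. The part of these cell types in the members' values was not tested.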

How the data were processed

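RNA-seq libraries of retinal explants came from a strand-specific kit for total RNA. The authors deposited expected counts per gene and per transcript, estimated with kallisto on GRCm38 per the submitters' processing notes (versions not given in the sources used here). The counts were rounded, which moved a library total by at most 0.00377%. CPM values of 12568 genes, which the authors divided by scaled library sizes, were treated as a score and used as an alternative. Their comparison table (log2 fold change, mean log2 CPM, F, p and adjusted p) was not used. Symbols were matched for 99.4% of genes, and Tf was found under its RefSeq synonym Trf. Coordinates are those of the gene table.

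Groups came from the sample titles. edgeR 4.0.16 in R 4.3.3 fitted quasi-likelihood models to genes kept by its filter on low counts, with TMM scaling and p-values adjusted over all genes. Correlations and likeness used log2 CPM with a prior count of 2. Scripts were tested on simulated data with a lower dispersion and larger changes than the members had here. That test does not bear on detecting changes of the size reported. The refits of the lists with other tools or a library left out were chosen after seeing the data. limma 3.58.1, DESeq2 1.42.0 and sva 3.50.0 gave alternatives. The members and the lists around them were chosen with earlier results of these data known. Named genes were all members, up to 3 tested genes of smallest p per list, and the 3 genes most like each member, and S100a10, Tgm1, Glul, Aqp4, Kcnj10, Dkk3, Pias3, Rpe65, Tyr, Lrat, Rgr and the genes other fits called were named after their values were seen. One gene that the rule names is not reported here. Of the transcripts, those of largest share in a member were considered. Samples share replicate numbers across groups. Deviations of same-numbered samples correlated at 0.451, -0.155, 0.102 and 0.205, so the numbers were not taken to pair them. Intervals cover the spread between libraries.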

Additional observations from a re-analysis of the deposited data

How the results depend on the processing

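Of 200 refits of single members under alternatives, 183 kept the direction and the side of the threshold, 16 reversed the direction and 1 passed the threshold, Socs3 with 2 surrogate variables. Vim, Serpina3n, Stat3, Socs3 and Osmr kept their direction in every alternative run, but not their size. The estimate nearest 0 was -0.185 for Serpina3n with limma-voom, 0.039 for Stat3 with 2 surrogate variables, and -0.193 for Socs3 and -0.122 for Osmr with the replicate block. Log2 fold changes that reversed were those of Gfap with limma-voom and sample quality weights (-0.129), Lcn2 without 2-DG replicate 2 (-0.018), and Cp (-0.324) and Fgf2 (-0.194) with 2 surrogate variables. Edn2 reversed with upper-quartile scaling (-0.072), limma-voom (-0.213), the replicate block (-0.013) and the deposited CPM in limma (-0.284), where Fgf2 was at -0.036. With 1 library left out at a time Lcn2 ran from -0.018 to 0.859, Cp from -0.203 to 0.439, Edn2 from -0.527 to 0.343 and Fgf2 from -0.068 to 0.462. The cause of these shifts was not tested.

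Members called after adjustment numbered 0 in each fit but that with 2 surrogate variables (1). Members at an unadjusted p under 0.05, 1 in the fit reported, numbered 0 with upper-quartile scaling and with library size only, 3 with limma-voom with sample quality weights and with 2 surrogate variables, and 0 to 3 with 1 library left out, the 3 being without control replicate 2. Genes called, 0 as reported, numbered 284 with DESeq2, 1222 with sample quality weights, 725 with 2 surrogate variables and 0 to 16 with 1 library left out (16 without control replicate 2, 2 without 2-DG replicate 4). Genes at an unadjusted p under 0.05, 1526 as reported, numbered 2642 with no filter on low counts, 5474 with sample quality weights, 4175 with 2 surrogate variables and 921 to 2721 with 1 library left out (921 without control replicate 4, 2721 without 2-DG replicate 4). With the replicate number as a block, where control replicate 5 has no partner and adds nothing to the contrast, Vim had a log2 fold change of 0.88 (unadjusted p = 0.0051, adjusted p = 0.575 in edgeR) and no member was called, which is the call of the fit without the block. With 5 and 4 libraries the 95% intervals of the log2 fold change ran from the width of Vim (0.03 to 1.30) to that of Lcn2 (-0.84 to 2.06), and differences inside them were not detectable.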
